A study of Marchantia polymorpha with 9 samples.

Results

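The genes described here lie on the smallest sequence pieces of the Marchantia polymorpha gene models, version 3.1, as far as gene content goes. In these models an ID such as Mapoly2045s0001 carries the number of a scaffold, a continuous piece of assembled genome, between "Mapoly" and "s". A gene was included when its scaffold held at most 2 gene IDs in the whole count table and when at least 10 counts were found in each of 3 or more of the 9 libraries. IDs that start with MapolyY_, from the Y chromosome, were not considered. The rule left 292 genes of 19287 gene IDs, and they are called small-scaffold genes below. They occupied 264 scaffolds, 212 of the genes being alone on a scaffold and 80 lying on a scaffold with 2 IDs.

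A draft genome assembly consists of a few long scaffolds and many short ones that could not be joined to their neighbours. Short scaffolds often end in repeats, and they tend to hold recent gene copies, incomplete gene models and sequence from other organisms beside ordinary genes. An ID on such a scaffold is therefore a measured transcript whose genomic surroundings are not known. Marchantia polymorpha is a liverwort, and its flat body, the thallus, carries a waxy cuticle on its outer surface. MIXTA-type MYB transcription factors regulate the shape and surface of epidermal cells in flowering plants.

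Transcripts were measured by RNA sequencing of whole thalli of male Cambridge-strain plants, 10 days after gemmae, the small vegetative propagules, were set on Gamborg's B5 agar under long days. The genotypes WT, OX and KO had 3 libraries each, from biological replicates of 1 line per genotype. These abbreviations, which no label explains, are taken to mean wild type, overexpression and knockout. No source used here gives the altered gene, its promoter or its alleles, so a difference between genotypes cannot be told apart from a difference between lines. In whole thalli, fewer cells of a type and less RNA per cell cannot be told apart either.

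Library totals ranged from 44802998 to 57696744 counts. All 173583 values were even, so 1 read pair appears as 2 counts, and a library held 22401499 to 28848372 pairs. Levels are given as CPM, counts relative to library size after scaling with TMM factors, which ranged from 0.958 to 1.04. In 1 library, 3 pairs, the limit that a count of 0 allows, stood for at most 0.136 CPM. Gene lengths were not used, so levels are compared between genotypes and not between genes. None of the IDs could be paired with a name (0 of 19287 matched the reference table), so no role is given for any gene. The labelled tissue could not be checked by markers, and the targeted gene was not identified. Reads from near-identical copies may have been shared between IDs or dropped, and which small-scaffold genes this touches was not tested.

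Of the 578 IDs on scaffolds with 1 or 2 IDs, 286 fell under the count minimum, and 149 of these had 0 counts in all 9 libraries. A share of 50.5% of the small-scaffold IDs passed the minimum, against 77.9% (14582) of the IDs on other scaffolds. Of the 292 genes, 269 had counts in all 9 libraries and 235 had at least 10 counts in all 9. Only 5 genes passed the minimum through the 3 libraries of 1 genotype alone, and that genotype was KO for all 5. They are Mapoly0411s0001, Mapoly0887s0001, Mapoly1940s0001, Mapoly2045s0001 and Mapoly2566s0001, and that they are higher in KO is fixed in part by the rule, so their values are descriptions. Where they passed the later filter they are counted in all totals below, also in those of genes higher in KO. Totals without these 5 genes were not computed. Scaffold numbers of the 292 genes ran from 225 to 4414, and only 2 scaffolds with a number above 1000 held more than 2 IDs.

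Few genes lay at the minimum. With the 9 counts of a gene ordered from the highest down, the one in place 3 was exactly 10 for 6 genes, and it was 8 for 4 IDs just outside. Mapoly1969s0001, just inside, had 0, 2 and 2 counts in WT libraries, 6, 6 and 10 in OX libraries and 4, 10 and 12 in KO libraries. Mapoly0247s0001, also inside, had 10, 2 and 10 counts in WT libraries, 2, 4 and 2 in OX libraries and 16, 6 and 14 in KO libraries. Both lay near the limit in every genotype. Just outside, Mapoly1175s0001 had 8, 4 and 8 counts in WT libraries, 6, 4 and 8 in OX libraries and 6, 10 and 12 in KO libraries. Mapoly0865s0001 had 6, 6 and 6 counts in WT libraries, 10, 8 and 6 in OX libraries and 4, 8 and 10 in KO libraries.

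Differences were tested with edgeR's quasi-likelihood test on all 9 libraries, with p-values adjusted over the 14813 genes that passed its filter on low counts. This filter kept 290 of the 292 genes. A gene is called different where its adjusted p is below 0.05. The 290 genes mostly had few counts, with a median of 3.35 CPM and a range from 0.114 to 772 CPM, against a median of 19.9 CPM for the other genes tested. These CPM values measure counts and not transcript abundance, since lengths were not used. Their libraries also scattered more, with a median coefficient of variation within genotypes of 12.9% against 6.94%. Any difference among the 3 genotypes was called for 168 of the 290 genes (57.9%), beside 36.8% of all genes tested.

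Most of these 168 genes were highest in KO or lowest in OX. The mean was highest in KO for 97 of them (57.7%), in WT for 42 (25%) and in OX for 29 (17.3%). Among the other genes called, the mean was highest in KO for 33.5% and in OX for 39.0%. The lowest mean was that of OX for 102 of the 168 genes (60.7%), against 48.4% of the other genes called. The order KO above WT above OX was held by 71 genes, 24.5% of the 290, against 10.0% of all genes tested. For these 71 genes the median log2 fold change of OX against KO was -1.23, and 41 differed at least 2-fold. The opposite order, OX above WT above KO, was held by 22 genes (7.59%, against 10.4% of all genes tested). Genes with KO above OX above WT numbered 26 (8.97%, against 2.56%), and those with WT above KO above OX numbered 31 (10.7%, against 7.93%). WT above OX above KO was held by 11 genes (3.79%, against 2.18%) and OX above KO above WT by 7 (2.41%, against 3.75%). These shares describe the genes of the list, and no test compared the list with the rest. Genes that met the count minimum through KO alone were not left out of them.

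**Figure D1:**
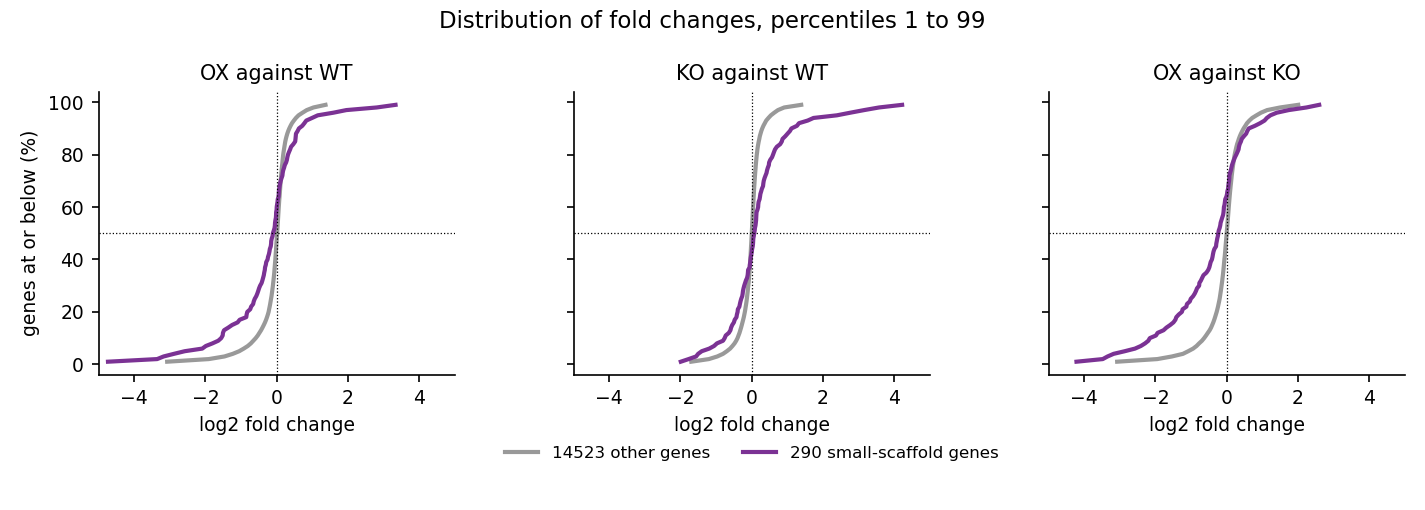
Share of genes (vertical axis, %) at or below each log2 fold change (horizontal axis), for the 290 small-scaffold genes and the 14523 other genes tested, from percentile 1 to 99. The small-scaffold curve is the wider one in each comparison, and it crosses the 50% line at -0.11 (OX against WT), 0.070 (KO against WT) and -0.24 (OX against KO).

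In OX against WT, the comparison of the overexpression genotype with its control, small-scaffold genes were called lower more often than higher. Of the 290 genes, 112 were called (38.6%), beside 24.8% of all genes tested. There were 80 lower genes (27.6%, beside 14.3% of all genes) and 32 higher genes (11%, beside 10.5%), so the share that rose was near that of all genes. At least 2-fold differences were called for 57 genes (19.7%, beside 6.21%), with 42 lower (14.5%, beside 4.67%) and 15 higher (5.17%, beside 1.54%). The OX and WT libraries did not overlap for 144 genes (49.7%, beside 40.2%), and OX was below WT for 94 of them (32.4%, beside 20.3%) and above it for 50 (17.2%, beside 19.9%). The median log2 fold change of the 290 genes was -0.11, against 0.010 for all genes tested. With libraries scaled by their size alone, 34.2% of the small-scaffold genes called were higher instead of 28.6%, and 57.2% of all genes called instead of 42.4%.

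Mapoly1685s0001, alone on its scaffold, had the largest rise in OX. Its level was 0.353, 0.905 and 0.416 CPM in the WT libraries, 12, 10.2 and 9.31 CPM in OX, and 5.2, 3.11 and 4.44 CPM in KO. The 3 genotypes did not overlap, with OX highest and WT lowest. The log2 fold change of OX against WT was 4.28 ± 0.30 (SE, n = 3 libraries each, adjusted p = 5.02e-06). KO was above WT by 2.98 (adjusted p = 1.36e-04) and OX above KO by 1.30 (adjusted p = 0.00215) on the log2 scale. The gene was thus raised in both altered genotypes, which share the WT libraries as control.

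Mapoly2760s0001 showed the same order at a lower level. It had 0.353, 0.0905 and 0.243 CPM in WT, 2.28, 2.30 and 2.89 CPM in OX, and 1.42, 0.869 and 1.13 CPM in KO. The libraries of the 3 genotypes did not overlap. OX exceeded WT by 3.39 ± 0.34 on the log2 scale (adjusted p = 5.46e-05), KO exceeded WT by 2.26 (adjusted p = 0.00195), and OX exceeded KO by 1.13 (adjusted p = 0.0111).

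Among genes with a mean of at least 1 CPM in WT, the 2 with the largest falls in OX went nearly to the detection limit. Mapoly0992s0001 had 2.68, 2.67 and 1.84 CPM in WT, 0, 0.0334 and 0 CPM in OX, and 1.38, 0.905 and 0.988 CPM in KO. Over the 3 libraries of a genotype it had 188 read pairs in WT, 92 in KO and 1 in OX, the latter in replicate 2. The scaled ratio of WT to OX was 205, with a 95% exact binomial interval of 36.4 to 8150 that covers counting error only (adjusted p = 4.95e-06). KO lay between, and its log2 fold change against WT was -1.13 (adjusted p = 0.0243).

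Mapoly0282s0001 lies on a scaffold with 2 IDs. It had 2.68, 1.99 and 2.91 CPM in WT, 0.0368, 0.133 and 0.034 CPM in OX, and 0.850, 1.12 and 1.23 CPM in KO. OX was lowest and WT highest, without overlap. The log2 fold change of OX was -5.15 ± 0.39 against WT (adjusted p = 7.53e-06) and -3.91 against KO (adjusted p = 4.56e-05), and that of KO against WT was -1.24 (adjusted p = 0.0124). Without OX replicate 2, which held most of the OX counts, the values for OX were -6.07 and -4.83.

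In KO against WT, the comparison of the knockout genotype with the same control, the direction was the opposite: most genes called were higher in KO. Of the 290 genes, 102 were called (35.2%), beside 14.1% of all genes tested. There were 71 higher genes (24.5%, beside 6.51% of all genes) and 31 lower genes (10.7%, beside 7.64%). Genes that met the count minimum through KO alone, at most 5, were not left out of the higher ones. At least 2-fold differences were called for 44 genes (15.2%, beside 3.18%), with 32 higher (11%, beside 1.36%) and 12 lower (4.14%, beside 1.82%). The KO and WT libraries did not overlap for 142 genes (49.0%, beside 31.2%), and KO was above WT for 89 of them (30.7%, beside 15.2%) and below it for 53 (18.3%, beside 15.9%). Without KO replicate 2 the count was 70, with 47 higher genes, and without WT replicate 1 or WT replicate 2 it was 75, with 52 higher genes.

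Mapoly2045s0001, alone on its scaffold, had the largest fold change of all small-scaffold genes. It is one of the 5 genes that met the count minimum through KO alone, so its values are given as a description without a test. It had 46.1, 43.8 and 41.8 CPM in KO, 0.141, 0 and 0 CPM in WT, and 0.0368, 0.0667 and 0.068 CPM in OX. Its 3696 read pairs in KO stood against 4 in WT and 5 in OX, so it was close to absent from both other genotypes. The scaled ratio of KO to WT was 870 (95% exact binomial interval 340 to 3195), and that of KO to OX was 760 (325 to 2342). OX and WT did not differ detectably (adjusted p = 0.907). All 4 WT pairs came from replicate 1, and the fitted log2 fold change of KO against WT, 9.70, was 14.2 without that library and 9.08 without WT replicate 3.

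Mapoly1356s0001 was raised in both altered genotypes and most in KO. It had 0.176, 0.226 and 0.104 CPM in WT, 1.43, 1.80 and 1.80 CPM in OX, and 2.55, 2.93 and 3.14 CPM in KO. KO exceeded WT by 4.10 ± 0.25 on the log2 scale (adjusted p = 3.08e-06), and OX exceeded WT by 3.33 (adjusted p = 8.61e-06). OX was lower than KO (log2 fold change -0.77, adjusted p = 0.00968).

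Mapoly2227s0001 was close to absent from KO. It had 1.23, 1.04 and 0.866 CPM in WT, 0.588, 0.601 and 0.782 CPM in OX, and 0.0354, 0 and 0 CPM in KO. The 83 read pairs in WT and 57 in OX stood against 1 pair in KO, found in replicate 1. The scaled ratio of WT to KO was 88.1 (95% exact binomial interval 15.4 to 3523, adjusted p = 6.00e-05). OX and WT did not overlap, but their difference did not pass the test (log2 fold change -0.67, adjusted p = 0.157).

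Mapoly1999s0001 fell in both altered genotypes. It had 6.59, 5.75 and 6.24 CPM in WT, 1.47, 1.80 and 1.29 CPM in OX, and 1.81, 1.77 and 1.48 CPM in KO. The log2 fold change was -1.88 ± 0.15 for KO against WT (adjusted p = 2.08e-05) and -2.02 for OX against WT (adjusted p = 6.96e-06). OX and KO overlapped and differed by -0.15 (adjusted p = 0.504).

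A small number of transcripts were missing from all libraries of a genotype. No gene with 0 counts in a whole genotype reached a mean of 1 CPM in another, and the 2 such genes found were chosen after their values were seen. Mapoly0887s0001 had 0 counts in all 3 WT libraries, 2, 2 and 2 counts in OX, and 18, 12 and 22 counts in KO. Against the limit of 3 pairs summed over the WT libraries, KO was at least 8.16-fold higher if its own count is taken as exact. With counting error in both genotypes, the lower limit of the 95% exact binomial interval of the ratio was 6.18. Mapoly2566s0001 had 0 counts in all OX libraries, 0, 2 and 0 in WT, and 34, 30 and 28 in KO. Against the same limit for OX, KO was at least 15.8-fold higher on the same condition, and the lower limit of the interval was 12.3. Both genes met the count minimum through KO alone, so their high values there follow in part from the rule and are not tested.

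In the direct comparison of OX with KO, more than 1 in 3 of the small-scaffold genes were lower in OX. Of the 290 genes, 152 were called (52.4%), beside 34.7% of all genes tested. There were 119 lower genes (41.0%, beside 19.1% of all genes) and 33 higher genes (11.4%, beside 15.6%). The lower ones again include genes that met the count minimum through KO alone. At least 2-fold differences were called for 85 genes (29.3%, beside 8.48%), with 68 lower (23.4%, beside 5.28%) and 17 higher (5.86%, beside 3.20%). The OX and KO libraries did not overlap for 185 genes (63.8%, beside 49.1% of all genes), and OX was below KO for 140 of them (48.3%, beside 25.3%) and above it for 45 (15.5%, beside 23.8%). The median log2 fold change was -0.24, against -0.0023 for all genes tested, and 64.5% of the values were below 0, against 50.4%. With scaling by library size alone, 29.9% of the small-scaffold genes called were higher instead of 21.7%, and 62.7% of all genes called instead of 45.1%. This comparison shares its libraries with the preceding ones and is not independent of them.

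Among genes with a mean of at least 1 CPM in KO, the largest falls of OX against KO were those of Mapoly2045s0001 and Mapoly0992s0001, both described above. For Mapoly0992s0001 the scaled ratio of KO to OX was 94.6 (95% exact binomial interval 16.6 to 3776, adjusted p = 1.57e-05).

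Among genes with a mean of at least 1 CPM in OX, Mapoly0538s0001 had the largest rise. Below that level, Mapoly2227s0001, described above, had a larger one, with a scaled ratio of OX to KO of 55.4 (95% exact binomial interval 9.56 to 2228). Mapoly0538s0001 had 0.705, 0.634 and 0.450 CPM in WT, 2.87, 1.00 and 1.84 CPM in OX, and 0.212, 0.217 and 0.247 CPM in KO. OX was highest in all libraries but scattered nearly 3-fold, from 1.00 to 2.87 CPM. OX exceeded KO by 3.06 ± 0.40 on the log2 scale (adjusted p = 2.17e-04) and WT by 1.67 (adjusted p = 0.00678). KO and WT did not overlap, but the difference did not pass the test (log2 fold change -1.39, adjusted p = 0.059).

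Mapoly2590s0001 followed, at a much higher count. It had 102, 106 and 101 CPM in WT, 227, 214 and 242 CPM in OX, and 34.6, 33.9 and 38.2 CPM in KO. All 3 genotypes were clearly separated, with OX above WT and WT above KO. OX exceeded KO by 2.68 ± 0.062 (adjusted p = 9.92e-10) and WT by 1.15 ± 0.059 (adjusted p = 5.70e-07), and the log2 fold change of KO against WT was -1.53 ± 0.060 (adjusted p = 1.00e-07).

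Another pair of small-scaffold genes, picked out after their values were seen, had nearly the same profile as Mapoly2590s0001 although each carries another scaffold number. Mapoly2298s0001 had 123, 131 and 125 CPM in WT, 256, 240 and 265 CPM in OX, and 43.7, 41.9 and 46.3 CPM in KO. Mapoly0435s0001 had 22.7, 25.3 and 28.6 CPM in WT, 47.5, 48.3 and 53.8 CPM in OX, and 7.72, 7.86 and 9.31 CPM in KO. OX exceeded KO by 2.53 ± 0.055 on the log2 scale for Mapoly2298s0001 (adjusted p = 6.77e-10) and by 2.59 ± 0.10 for Mapoly0435s0001 (adjusted p = 4.05e-08). Over the 9 libraries the log2 levels of the 3 genes correlated pairwise at r = 0.999, 0.996 and 0.994, over libraries that fall into 3 genotypes. Whether the 3 IDs share reads was not tested.

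Mapoly0329s0001, also chosen after its values were seen, showed the reverse order with wide gaps. It had 18.3, 19.1 and 24.4 CPM in WT, 4.67, 4.90 and 4.86 CPM in OX, and 49.8, 48.7 and 50.9 CPM in KO. OX was the lowest and KO the highest, without overlap. The log2 fold change of OX was -2.10 against WT (adjusted p = 4.54e-07) and -3.37 against KO (adjusted p = 7.59e-09), and that of KO against WT was 1.27 (adjusted p = 1.01e-05).

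**Figure D2:**
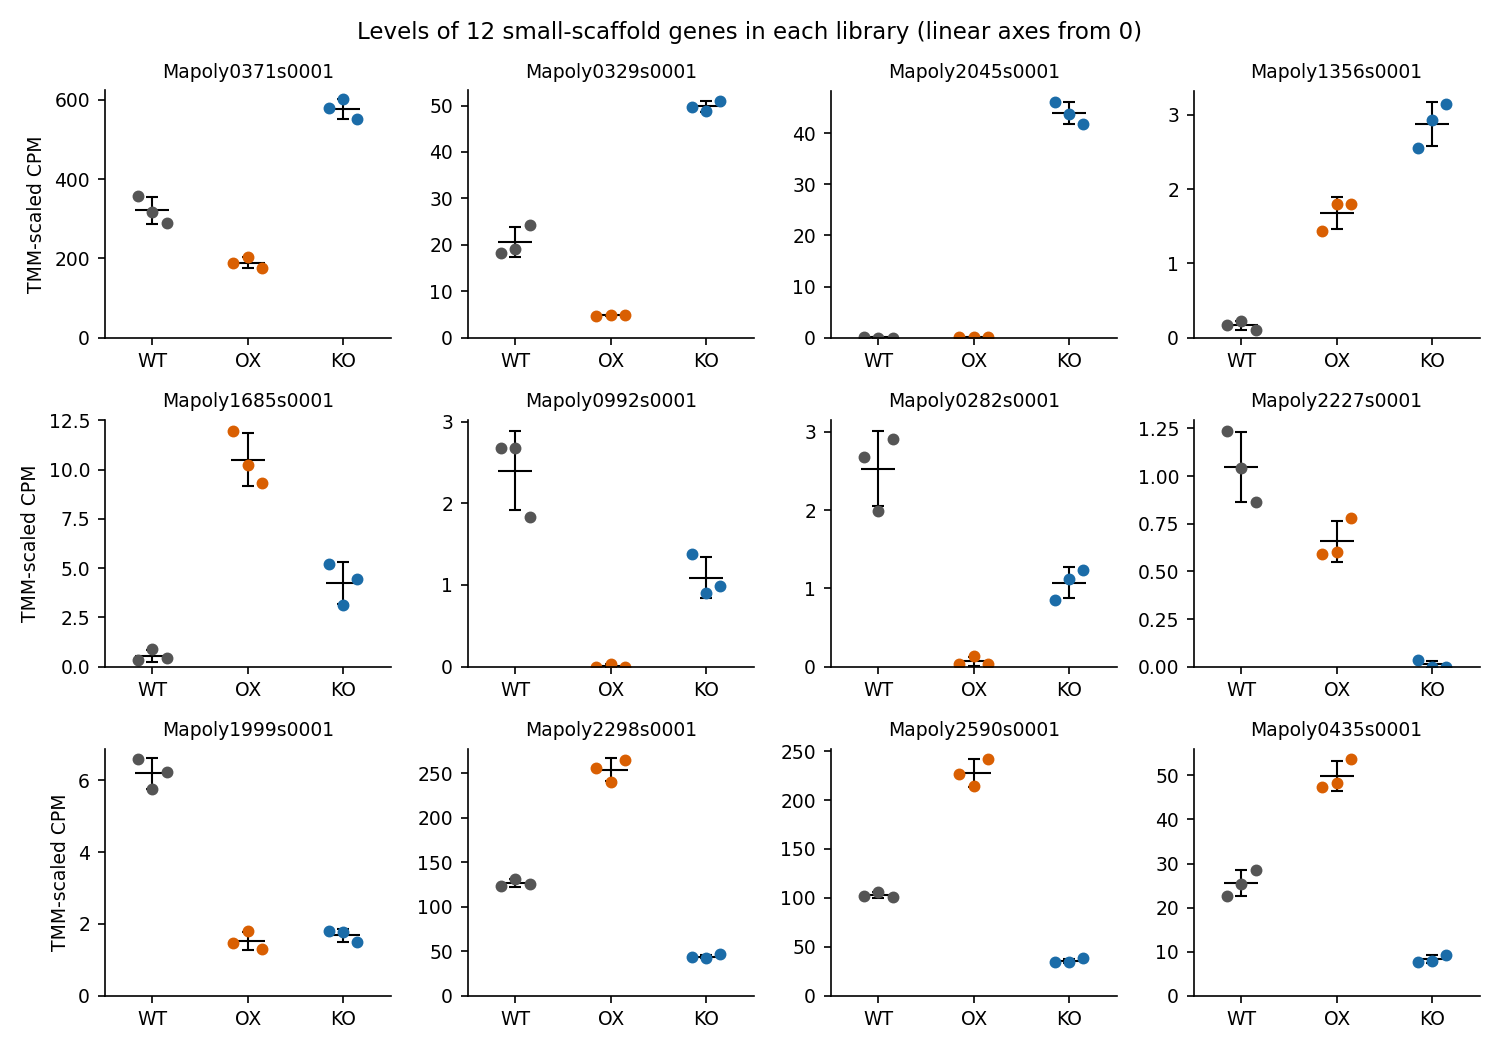
Levels of 12 small-scaffold genes (TMM-scaled CPM, linear axes from 0) in each library of WT, OX and KO. Points are libraries, long lines are means and bars are ± 1 SD (n = 3 libraries). Mapoly2045s0001 stands near 0 in WT and OX and at 41.8 to 46.1 CPM in KO, and the bottom right panels show 3 genes with OX highest and KO lowest.

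Of the 3 small-scaffold genes with the most counts, 1 differed widely between genotypes. Mapoly0657s0001, the most counted, had 759, 767 and 749 CPM in WT, 744, 706 and 744 CPM in OX, and 806, 839 and 838 CPM in KO. KO was above WT by 0.13 (adjusted p = 0.0431), and OX was below KO (log2 fold change -0.18, adjusted p = 0.00355). Mapoly1576s0001 followed with 463 ± 26 CPM in WT, 494 ± 34 CPM in OX and 447 ± 20 CPM in KO (SD, n = 3 libraries each), and none of its comparisons passed the test (adjusted p 0.0901 to 0.641). Mapoly0371s0001 had 358, 318 and 289 CPM in WT, 188, 204 and 175 CPM in OX, and 579, 602 and 552 CPM in KO. This gene had KO highest and OX lowest without overlap, and the log2 fold change of OX against WT was -0.76 ± 0.079 (adjusted p = 6.28e-05), that of KO against WT 0.85 ± 0.079 (adjusted p = 7.05e-05). OX against KO gave -1.61 (adjusted p = 2.45e-07).

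Summed over all 292 genes, small-scaffold genes took a nearly constant share of each library. The share was 0.768%, 0.778% and 0.796% of the counts in WT. OX libraries gave 0.772%, 0.778% and 0.789%, and KO libraries 0.803%, 0.808% and 0.822%. The KO libraries lay above all others, and WT and OX overlapped. The difference of KO from WT was 0.0304 percentage points, with a two-sided exact permutation p of 0.1, the smallest that 3 against 3 libraries can give. OX was below KO by the same p (difference -0.0310), and the exact permutation p for OX against WT was 1. Without Mapoly0657s0001, the gene with the most counts, KO exceeded WT by 0.0249 points.

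In some directions the share of genes called went with the number of IDs on a scaffold. Of the genes alone on a scaffold, 43.3% were lower in OX than in KO, and of those on scaffolds with 2 IDs 35% were. The share was 29.3% of 410 genes on scaffolds with 3 to 20 IDs, 20.2% of 4758 genes with 21 to 100 IDs and 17.4% of 9321 genes with over 100 IDs. For genes lower in OX than in WT the shares in the same order were 28.1%, 26.3%, 24.4%, 14.7% and 13.2%. Genes higher in KO than in WT made up 26.2% and 20% of the small-scaffold classes, but 7.07%, 7.73% and 5.32% of the larger ones. The class with 3 to 20 IDs was thus close to the small-scaffold genes in falls of OX against WT. It was close to the large scaffolds in rises of KO against WT. In falls of OX against KO, at 29.3%, it lay between the small-scaffold classes and the larger ones. Other directions were less regular. Genes higher in OX than in WT made up 9.76% to 12.5% of all 5 classes. With at least 2-fold required, their shares from the smallest class to the largest were 5.71%, 3.75%, 1.46%, 1.85% and 1.28%. Genes higher in OX than in KO were fewest among those alone on a scaffold, at 10.5%, 13.8%, 15.6%, 16.2% and 15.5% from the smallest class to the largest. Genes lower in KO than in WT made up 9.52%, 13.8%, 8.54%, 8.36% and 7.15%. With at least 2-fold required, genes lower in KO than in WT made up 3.33%, 6.25%, 2.68%, 1.87% and 1.68%. Those higher in OX than in KO made up 7.14%, 2.5%, 3.90%, 3.45% and 2.95% at the same minimum.

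**Figure D3:**
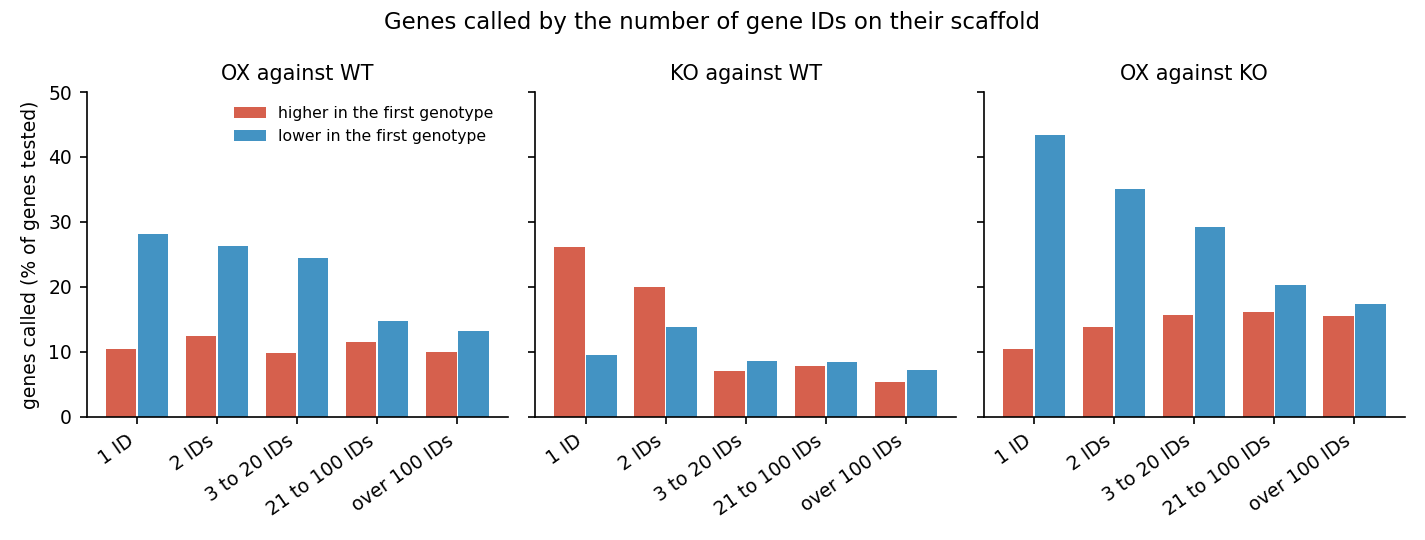
Share of tested genes called (vertical axis, %, from 0) in each pairwise comparison, by the number of gene IDs on the scaffold (horizontal axis) and by direction, where "first genotype" is the one named first in the panel title. Bars for genes lower in OX than in KO descend from 43.3% for 1 ID to 17.4% for over 100 IDs.

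Within the small-scaffold genes the scaffold number itself, a label and not a measured length, went with no steady trend. Any difference was called for 53.0% of 66 genes with numbers up to 500 and for 59.8% of 82 genes with numbers from there to 1000. It was called for 53.3% of 60 genes up to 2000 and for 63.4% of 82 genes beyond.

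The number of counts moves with scaffold class, so the shares were also compared at like CPM. In each of 6 ranges of mean CPM, a larger share of the small-scaffold genes than of the other genes was lower in OX than in WT, higher in KO than in WT, and lower in OX than in KO. Below 1 CPM, 33.7% of 86 small-scaffold genes were lower in OX than in KO, against 12.9% of the other genes. Between 30 and 100 CPM it was 51.6% of 31 genes against 17.7%, and at 100 CPM and over 33.3% of 21 genes against 26.5%. From 3 CPM up, a larger share of the small-scaffold genes was also lower in KO than in WT, as 16.7% between 3 and 10 CPM (others 9.76%). Below 3 CPM this share was smaller, as 7.41% between 1 and 3 CPM (others 9.37%). In the highest range both directions had larger shares in every comparison. There 28.6% of the small-scaffold genes were lower in KO than in WT (others 5.92%) and 23.8% higher (others 9.42%). Also there, 19.0% were higher in OX than in KO (others 13.2%), and their median log2 fold change of OX against KO was 0.017. The largest share of genes higher in KO than in WT was 36% of 50 genes between 10 and 30 CPM, against 5.64% of the others. The spread within genotypes was similar at low levels, with a median coefficient of variation of 15.8% against 16.1% between 1 and 3 CPM, and wider at 30 to 100 CPM, 7.89% against 4.22%. Among the 204 small-scaffold genes with a mean of at least 1 CPM, 63 were lower in OX than in WT (30.9%, against 14.5% of the others), 56 higher in KO than in WT (27.5%, against 6.70%) and 90 lower in OX than in KO (44.1%, against 19.7%).

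**Figure D4:**
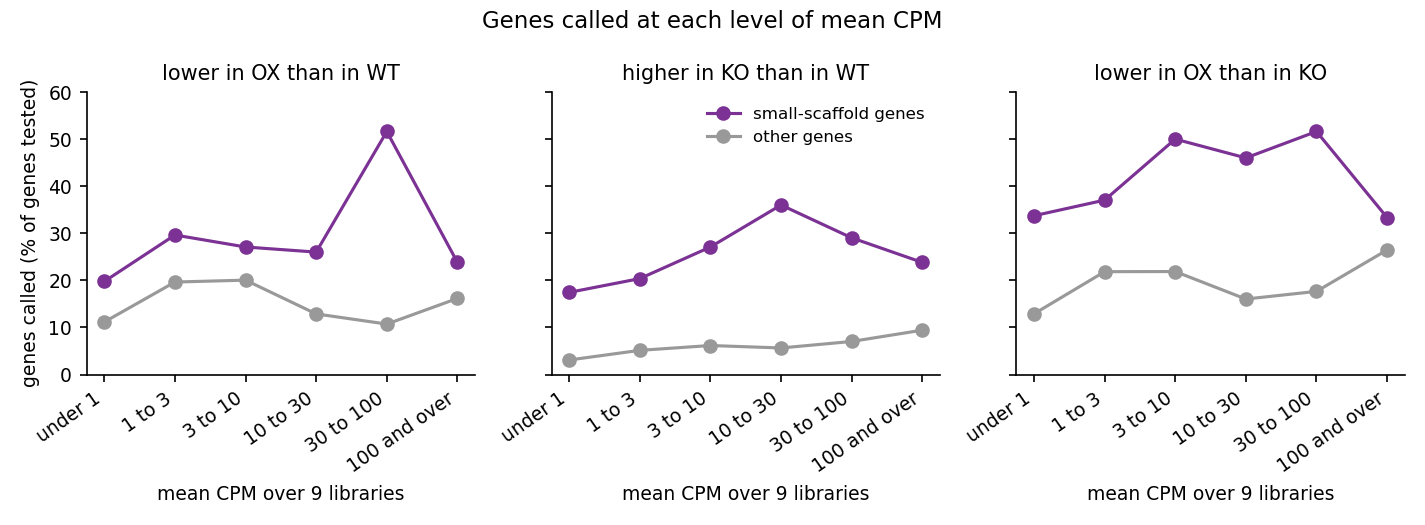
Share of tested genes called (vertical axis, %, from 0) by mean CPM over 9 libraries (horizontal axis, 6 ranges), for small-scaffold genes and other genes. In all 3 panels the small-scaffold points lie above the others, with the widest gap for genes lower in OX than in WT between 30 and 100 CPM, 51.6% against 10.7%.

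On 28 scaffolds both IDs were small-scaffold genes, and they could be compared as neighbours. In OX against KO, both IDs were called on 6 scaffolds, 1 ID on 11 and neither on 11. Of the 6 scaffolds with both called, 3 had the same direction. Both were called on 6 scaffolds when OX was set against WT, 4 in the same direction, and on 5 for KO against WT, 3 in the same direction. The median gap between the log2 fold changes of neighbours was 0.46 when OX was set against KO, 0.32 for OX against WT and 0.19 for KO against WT. Of all 290 small-scaffold genes tested, 52.4% were called between OX and KO, 38.6% between OX and WT and 35.2% between KO and WT. Pairs of genes from different scaffolds were not compared. Whether neighbours were called together more often, or moved more alike, than such pairs was therefore not tested. IDs of a scaffold share their source and are not replicates.

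In the comparisons of OX with WT and with KO, neighbours moved in opposite directions on the scaffold of Mapoly0282s0001, which fell in OX as described above. Its neighbour Mapoly0282s0002 had 10.2, 10.3 and 10.8 CPM in WT, 13.4, 13.4 and 11.6 CPM in OX, and 4.60, 4.71 and 4.16 CPM in KO. It was lowest in KO and higher in OX than in KO by 1.51 on the log2 scale (adjusted p = 7.84e-07). In KO against WT both IDs fell alike, with log2 fold changes of -1.24 (adjusted p = 0.0124) and -1.22 (adjusted p = 1.16e-05). On scaffold 2201, Mapoly2201s0001 had 1.55, 1.90 and 2.11 CPM in WT, 1.62, 1.60 and 1.63 CPM in OX, and 16.7, 15.5 and 16.7 CPM in KO. Mapoly2201s0002 had 4.66, 4.71 and 4.26 CPM in WT, 4.45, 4.40 and 4.89 CPM in OX, and 2.23, 2.61 and 2.75 CPM in KO. Both stood apart in KO alone, the first ID high (log2 fold change 3.13 against WT, adjusted p = 7.92e-08) and the second low (-0.84, adjusted p = 9.92e-04).

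Scaffold 633 showed the same split in KO. Mapoly0633s0001 had 4.30, 4.21 and 3.67 CPM in WT, 5.92, 5.67 and 6.08 CPM in OX, and 8.50, 8.36 and 7.48 CPM in KO. Mapoly0633s0002 had 12.6, 11.4 and 13.4 CPM in WT, 18.5, 18.7 and 19.0 CPM in OX, and 4.81, 6.37 and 6.74 CPM in KO. Both IDs were higher in OX than in WT in all libraries, while in KO the first rose by 1.00 (adjusted p = 1.04e-04) and the second changed by -1.06 (adjusted p = 1.77e-04) on the log2 scale.

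On other scaffolds neighbours moved in the same direction in at least 1 comparison. Mapoly0652s0001 had 10.8 ± 0.71 CPM in WT, 6.49 ± 1.1 in OX and 16.1 ± 0.94 in KO (SD, n = 3 libraries each), and Mapoly0652s0002 had 2.55 ± 0.41, 1.64 ± 0.30 and 3.92 ± 0.17 CPM. Their log2 fold changes of OX against KO were -1.31 (adjusted p = 1.76e-05) and -1.26 (adjusted p = 2.46e-04). Mapoly0595s0001 had 39.5 ± 2.0 CPM in WT, 15.4 ± 1.4 in OX and 32.2 ± 1.9 in KO, and Mapoly0595s0002 had 302 ± 24, 229 ± 9.7 and 226 ± 2.4 CPM. Both were lower in OX than in WT, by -1.36 (adjusted p = 8.36e-07) and -0.40 (adjusted p = 6.19e-04) on the log2 scale. On scaffold 340 both IDs were near the detection limit in OX, with 9 and 6 read pairs over the 3 libraries against 42 and 23 in KO (log2 fold changes -2.23, adjusted p = 0.00971, and -1.95, adjusted p = 0.0181). The second of these, Mapoly0340s0002, lost its call without OX replicate 1 or 3 or without KO replicate 1 or 3, with adjusted p of 0.0545 to 0.0704. Its value was -2.87 without OX replicate 2, and that of Mapoly0340s0001 was -2.84 without OX replicate 1.

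**Figure D5:**
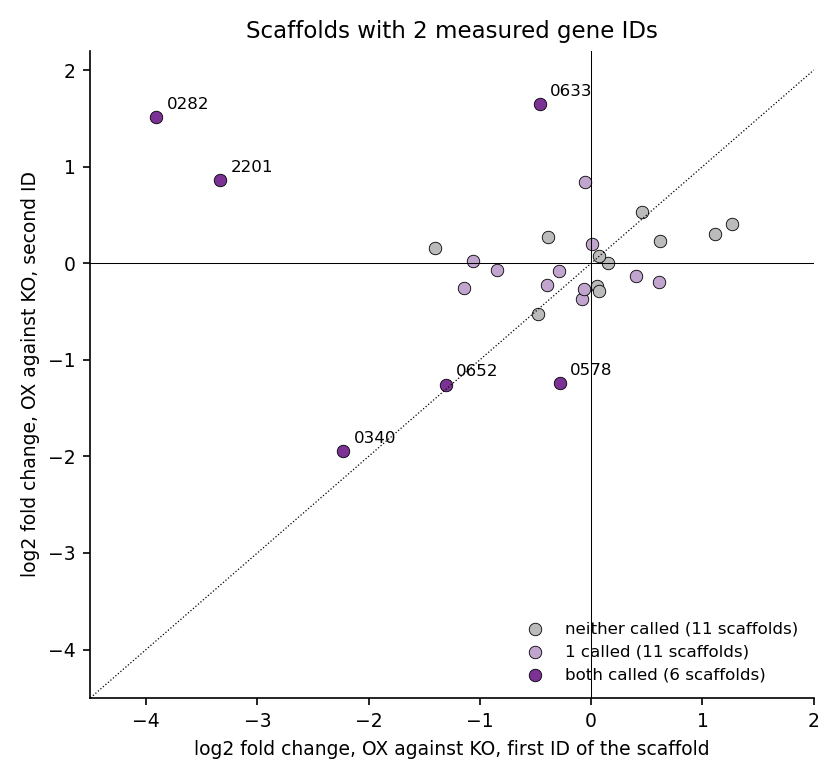
Log2 fold change of OX against KO for the first ID (horizontal axis) and the second ID (vertical axis) of the 28 scaffolds with 2 small-scaffold genes. Each point is a scaffold, colours give how many of its IDs were called, and the dotted line marks equal values. Scaffolds 0282, 0633 and 2201 lie in the upper left, where the first ID is lower and the second higher in OX.

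The largest ratios between libraries of 1 genotype, taken after adding 0.5 CPM to each level so that genes near 0 do not lead, were found for 3 genes. Mapoly0637s0001 had 5.11, 9.28 and 14.7 CPM in WT, 4.38, 8.67 and 10.0 CPM in OX, and 10.4, 13.6 and 15.6 CPM in KO. Its libraries overlapped between genotypes, and no pairwise comparison passed the test, which does not use replicate numbers. Within each replicate number OX was below WT and KO above it. Mapoly0467s0001 had 1.55, 2.53 and 4.64 CPM in WT, 1.84, 2.5 and 2.45 CPM in OX, and 3.75, 7.46 and 7.41 CPM in KO, and OX was lower than KO (adjusted p = 0.0121). Mapoly0403s0001 had 2.65, 2.22 and 0.762 CPM in WT, 0.257, 0.167 and 0.204 CPM in OX, and 2.55, 1.67 and 1.52 CPM in KO. WT replicate 3 was low, and OX still lay below all others for this gene, with log2 fold changes of -3.15 against WT (adjusted p = 8.49e-04) and -3.18 against KO (adjusted p = 5.51e-04).

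Mapoly2045s0001 correlated best with genes outside the small scaffolds, by a measure that ignores the size of a difference. Over the 9 libraries its log2 level correlated best with Mapoly0178s0024 (r = 0.992), Mapoly0085s0084 (r = 0.990) and Mapoly0169s0030 (r = 0.988), none of them a small-scaffold gene. Mapoly0178s0024 had means of 28.8 CPM in WT, 29.2 in OX and 33.4 in KO, and its log2 fold change of KO against WT was 0.22 (adjusted p = 0.00693), a much smaller difference than that of Mapoly2045s0001. Mapoly0085s0084 likewise rose little, with means of 60.4 CPM in WT, 61.4 in OX and 70.3 in KO (KO against WT 0.22, adjusted p = 0.00395). Mapoly0169s0030 had 0 counts in WT and OX and 1.59, 1.34 and 1.52 CPM in KO, so like Mapoly2045s0001 it was found almost entirely in KO. The 9 libraries fall into 3 genotypes, so these r values rest on few independent points.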

How the data were processed

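Raw counts per gene were deposited by the authors, 1 column per library, for whole thalli of 3 genotypes (9 libraries). Per the submitters' processing notes, STAR 2.5.1b and featureCounts 1.5 were used. No source used here states their settings, strand use or genome build. No column belonged to other samples (0 columns).

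The counts were modelled as deposited with edgeR 4.0.16 in R 4.3.3 (filterByExpr by genotype, TMM factors, glmQLFit and glmQLFTest with 1 mean per genotype over all 9 libraries). The Benjamini-Hochberg adjustment ran over 14813 genes. Every adjusted p comes from this test unless another is named. The procedure was tested on simulated data. Ratios of summed read pairs carry 95% exact binomial intervals, which, like the limit of 3 pairs, cover counting error only.

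Replicate pairs differed by 6.12 to 16.7 times the sampling noise (chi-square per degree of freedom), so no library was treated as a duplicate.

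The genes, lists and classes were chosen with earlier results of these data known. Genes are named by a rule: in each comparison the 2 largest rises and the 2 largest falls among called genes without overlap whose mean reached 1 CPM in the higher genotype. The rule adds the 3 with the most counts, the 3 with the largest within-genotype ratio, up to 6 scaffolds with both IDs called, and genes at 0 in a genotype. No sequence of these gene models was at hand, so none is printed. Alternatives were another scaling, filter, tool, sample set, replicate block and gene rule.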

Additional observations from a re-analysis of the deposited data

How the results depend on the processing

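Across alternatives the counts of small-scaffold genes called in either direction together stayed within 1.5 times their value, except where a fold minimum was added. With at least 2-fold change required they were 57 (OX against WT), 44 (KO against WT) and 85 (OX against KO), in place of 112, 102 and 152. When each library was dropped in turn the counts were 97 to 112, 70 to 102 and 130 to 155, and 150 to 174 for any difference. The lowest KO count of 70 came without KO replicate 2, where higher genes fell from 71 to 47. The percentage gap to all other genes for any difference, 21.5 points, was 21.1 to 24.6 when a library was dropped, 17.2 with the replicate block, 18.7 with library size alone and 28.6 with no low-count filter. Scaffolds with both IDs called for any difference, 7, numbered 5 to 7 when a library was dropped, 8 with DESeq2 and 10 with the replicate block. With the replicate number as a block the counts were 131, 126, 174 and 192. The labels do not say that a number pairs libraries: same-numbered deviations correlated above 0.1 in 6 of 9 pairs, and 7 of 9 libraries correlated best with their own number, a hint from the data only. DESeq2 called 119, 116 and 156, limma-voom 114, 105 and 154. The gap to all other genes for any difference was 23.2 points with DESeq2 and 21.7 with limma-voom. Scaling by library size alone called 114, 96 and 157. The genes called in the whole table then numbered 4107, 2052 and 5820, in place of 3667, 2096 and 5144. Restricting the rule to scaffolds with 1 ID left 81, 75 and 113 of 210 tested genes, with 20 instead of 31 lower in KO than in WT. Genes with a mean of at least 1 CPM, a choice made after seeing the data, gave 91, 84 and 116 of 204 tested genes. Their shares by direction are given above beside those of the other genes. The share of counts in OX minus WT, -0.000599 points, turned to 0.00726 without WT replicate 3, 0.00313 without OX replicate 1 and 0.00044 without OX replicate 2, with a lowest value of -0.00702, and the cause was not tested. KO minus WT ranged from 0.0239 to 0.0382 and OX minus KO from -0.0357 to -0.0253. The 24 fold changes of named genes were recomputed 451 times in all: 447 kept direction and side of the threshold, 4 (all Mapoly0340s0002) lost it and 0 reversed. All 24 were chosen because they were called in the main fit, so that they stayed called on the same libraries is no support. They include those of Mapoly2045s0001, whose high level in KO is also fixed in part by the count minimum. A gene that an alternative's filter removed was not recomputed there, as Mapoly2227s0001 with at least 1 CPM required in 3 libraries. Fitted values near 0 pairs moved most: without the library holding the few pairs, Mapoly2045s0001 went from 9.70 to 14.2, Mapoly0992s0001 from -7.44 to -10.0 and Mapoly2227s0001 from -6.22 to -8.86.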

Other observations

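For 21 small-scaffold genes, chosen after their values were seen because they had a mean of at least 10 CPM, a wide range over libraries and a difference among genotypes, the gene with the nearest profile was looked up among 3517 genes. The nearest profile was that of another small-scaffold gene for 3 of them and that of a gene on a scaffold with more than 50 IDs for 16. The 3 are Mapoly2298s0001, Mapoly2590s0001 and Mapoly0435s0001, described together above. Of all 14813 genes tested, 9321 lay on scaffolds with over 100 IDs. The share of large scaffolds among the 3517 genes was not computed, so the 16 cannot be read as a trait of the small-scaffold genes. The SD of the log2 ratio to the nearest gene ran from 0.0543 to 0.533 with a median of 0.140. Mapoly0578s0002 was nearest to Mapoly0057s0049 (r = 0.995), and Mapoly0595s0001 to Mapoly0038s0112 (r = 0.994), as descriptions over 9 libraries.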
